A study of Mesocricetus auratus with 8 samples.

Results

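The muscle and ubiquitous isoforms of 5 energy enzymes were examined in RNA-seq libraries of satellite cells (SCs), the muscle stem cells, of the Syrian hamster, a mammalian hibernator. They comprise 10 genes of the 17590 with values in the deposited table, 5 muscle isoforms and their 5 ubiquitous partners, and were found by gene symbol. The pairs are Pygm/Pygb, Pfkm/Pfkl, Pgam2/Pgam1, Eno3/Eno1 and Ckm/Ckb. All 10 passed the filter on low counts that left 12506 genes for testing. The genes were chosen by their names with cold-against-control values of these same libraries already known, so their levels in the cold are given as a description without a test.

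The cells came from hindlimb muscles of sexually mature male Slc:Syrian hamsters of genotype WT, were enriched by preplating, and were grown on Matrigel in growth medium (GM) with serum, chick embryo extract and basic fibroblast growth factor. The 4 control libraries were made from cells kept at 37°C (GM, day 3 in the titles). The 4 cold libraries were made from cells held at 37°C for 48 h, then for 24 h in HEPES-buffered GM at 37°C, and then for 24 h at 4°C. By the titles, the cold cells were thus a day older than the control cells, without a control of the same age, and cold and time in culture cannot be told apart. The treatment labels of control libraries 1 to 4 instead give 3, 4, 5 and 6 days at 37°C. The study's description, in which RNA was taken just before and just after the cold, goes with the titles, and by it the control cells had also been in HEPES-buffered GM, which their own labels do not mention. Nothing in the labels says what a replicate number marks or whether the cultures came from separate animals. The study describes the libraries of a group as biological replicates, and the p-values here measure the spread between these libraries, whatever its source.

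Muscle fibres carry their own isoforms of many enzymes that most cells make from other genes. During myogenic differentiation the muscle form is switched on while the ubiquitous form, which already serves the dividing myoblast, is kept or lost. Glycogen phosphorylase frees glucose units from glycogen, phosphofructokinase commits them to glycolysis, phosphoglycerate mutase and enolase act in its later steps, and creatine kinase passes phosphate between creatine and ATP.

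Depth ranged from 16530747 to 18533801 expected counts per library. The first principal component of log expression (54.5% of the variance) parted libraries 1 and 2 from 3 and 4 within both groups, and the second (17.9%) parted cold from control. Markers of the labelled cell type were present, with Pax7 at 12.7 ± 2.17 TPM (a level of transcript scaled to its length and to the library), Myod1 at 614 ± 103 TPM and Des at 830 ± 105 TPM in the control libraries (SD, n = 4). The 9 markers of satellite cells and myoblasts summed to 2667, 2677, 2392 and 2224 TPM in control libraries 1 to 4 and to 2305, 2470, 2308 and 2104 TPM in cold libraries 1 to 4, lower in 4 of 4 numbers. None of the 9 was called at both thresholds in either edgeR fit (1 lower at an unadjusted p under 0.05 without the block, where 516 of the 12506 genes were lower and 322 higher), and 4, Cdh15, Chrna1, Itga7 and Myod1, were lower by adjusted p alone with the replicate number as a block, beside 4.07% of all genes. Summed over 10 markers of differentiating myocytes, the level in control libraries 1 to 4 was 4851, 4847, 2436 and 2577 TPM, and in cold libraries 1 to 4 it was 2092, 2486, 1529 and 1335 TPM. All 10 of these markers were lower in the cold, among them Casq2, Acta1, Mymk and Mef2c, and while 0 were called at both thresholds without a block (8 had an unadjusted edgeR p under 0.05), 6 were called lower with the replicate number as a block, where 0.808% of all genes were. In bulk RNA, fewer differentiating cells and less RNA per cell cannot be told apart, and the part of this shift in the isoform levels was not tested. Fibroblast markers (8 genes) summed to 1260 to 1782 TPM at 37°C and 1245 to 1728 TPM after cold. Endothelial markers summed to at most 3.87 TPM, adipocyte markers to at most 1.08 TPM, and macrophage markers to 25.9 to 54.2 TPM at 37°C and 26.4 to 55.7 TPM after cold, nearly all of it Cd68, with the leukocyte marker Ptprc near 0.

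All 5 muscle isoforms had a lower mean in the cold, by 12.2% to 63.1% of the control TPM for Eno3, Pfkm, Pgam2, Ckm and Pygm, and each was lower in 4 of 4 replicate numbers when the cold library was set against its control. Of the ubiquitous isoforms only Ckb was lower in all 4 numbers, while Pgam1 was higher in all 4 and Eno1, Pfkl and Pygb went both ways. The plot of TPM in each library shows both sets side by side.

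**Figure D1:**
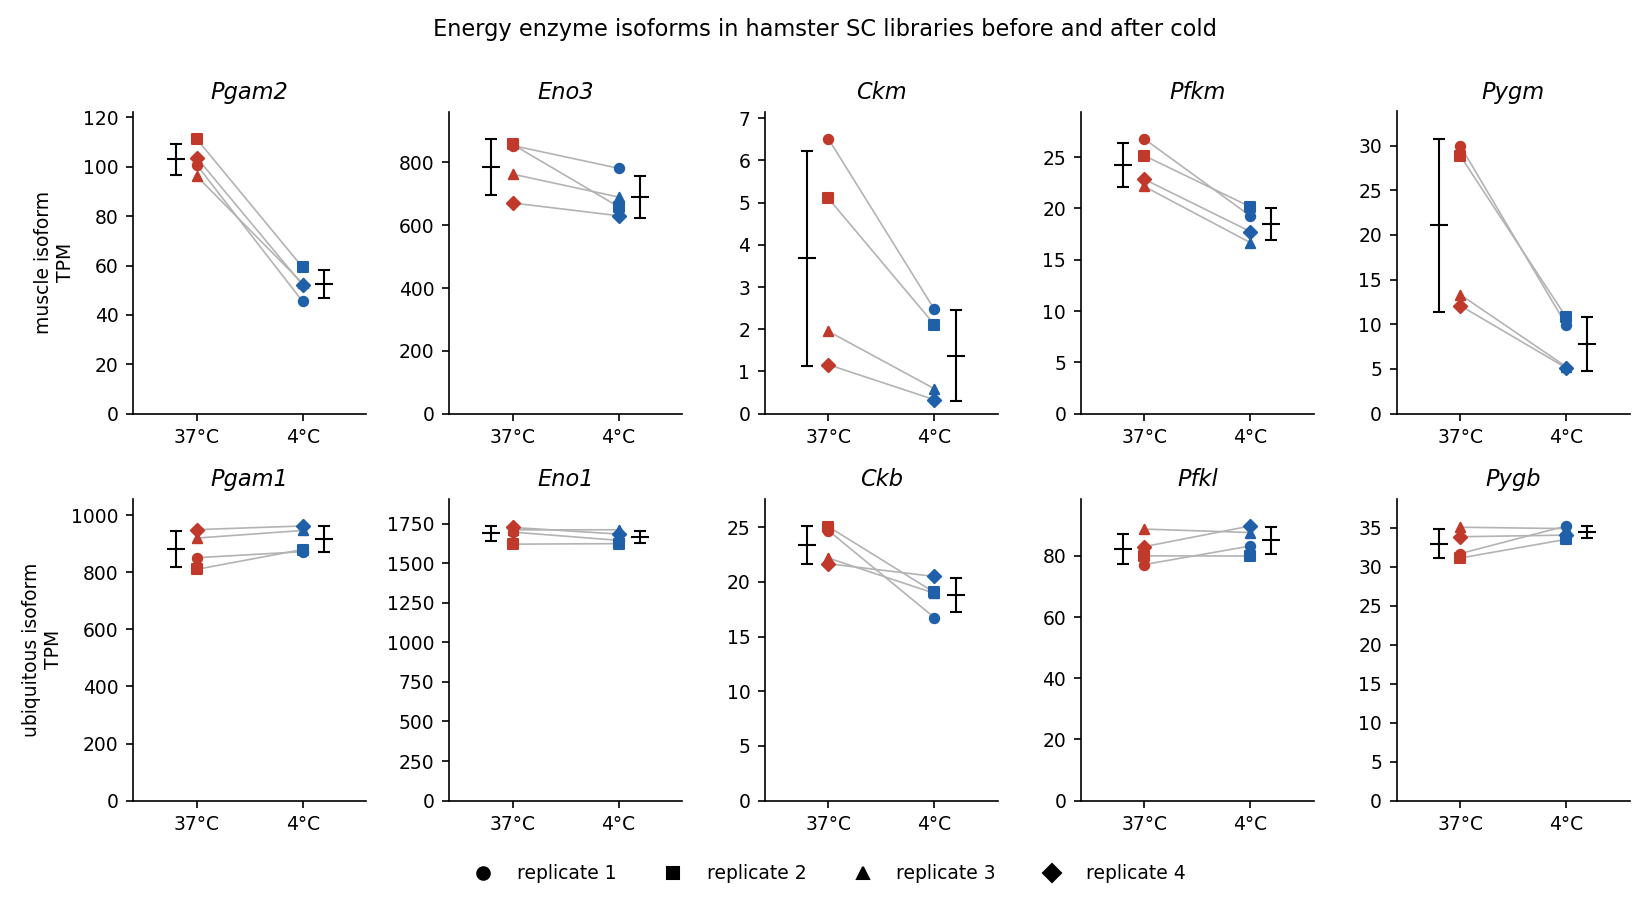
Level (TPM, linear axes from 0) of each muscle isoform (upper row) and its ubiquitous partner (lower row) in the 4 control (37°C, red) and 4 cold (4°C, blue) libraries, with lines joining equal replicate numbers and bars giving mean ± SD (n = 4). Pgam2, Pfkm, Pygm and Ckb have cold libraries that all lie under the control libraries, while Pgam1, Eno1, Pfkl and Pygb overlap.

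Pygm (identifier 101835714), the muscle glycogen phosphorylase, measured 30.0, 28.9, 13.3 and 12.1 TPM in control libraries 1 to 4 and 9.94, 10.8, 5.25 and 5.12 TPM in cold libraries 1 to 4. Controls 1 and 2 stood far above controls 3 and 4, as did their cold counterparts, yet every cold library was under every control library. The mean was 21.1 ± 9.67 TPM at 37°C and 7.78 ± 3.01 TPM after cold (SD, n = 4), 63.1% lower, and the log2 fold change was −1.47 (SE 0.39). Within numbers 1 to 4 the log2 difference of TPM was −1.59, −1.42, −1.34 and −1.24, a much narrower spread than that between libraries of one group. Its partner Pygb (101832364), the brain-type phosphorylase, measured 31.7, 31.1, 35.0 and 33.8 TPM at 37°C and 35.2, 33.5, 34.9 and 34.0 TPM after cold, with a log2 fold change of 0.05 (SE 0.04) and overlapping groups. Pygm supplied 48.6%, 48.1%, 27.5% and 26.3% of the phosphorylase TPM in control libraries and 22.0%, 24.4%, 13.1% and 13.1% in cold libraries. The muscle form was therefore close to an equal share in controls 1 and 2, and the summed TPM of the pair differed by −21.9% in the cold (54.0 ± 7.98 against 42.2 ± 2.98 TPM).

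Pfkm (101830760), the muscle phosphofructokinase, measured 26.8, 25.1, 22.1 and 22.8 TPM at 37°C and 19.3, 20.2, 16.7 and 17.7 TPM after cold. The groups did not overlap, and the difference was modest, 24.2 ± 2.13 against 18.5 ± 1.56 TPM, with a log2 fold change of −0.41 (SE 0.10). Pfkl (101832271), the liver-type enzyme, was the more abundant form, at 77.1, 80.0, 88.7 and 83.0 TPM at 37°C and 83.2, 79.9, 87.6 and 89.7 TPM after cold. Its log2 fold change was 0.03 (SE 0.05), with 2 numbers lower and 2 higher. The share of Pfkm was 22.8% ± 2.55 in control and 17.9% ± 1.95 in cold libraries, and the sum of both forms differed by −2.68%.

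Pgam2 (101824939), the muscle phosphoglycerate mutase, was nearly halved and was the most even of the muscle isoforms across control libraries. It measured 101, 111, 96.2 and 104 TPM at 37°C and 45.4, 59.3, 52.8 and 52.1 TPM after cold, so that the lowest control stood well above the highest cold library. The mean was 103 ± 6.33 against 52.4 ± 5.65 TPM, 49.1% lower, with a log2 fold change of −0.99 (SE 0.09) that fell just short of the fold threshold of 1. Unlike Pygm, Pgam2 did not part libraries 1 and 2 from 3 and 4, since controls 1 and 4 were at 101 and 104 TPM. Pgam1 (101838267), the widely expressed mutase, measured 851, 810, 919 and 949 TPM at 37°C and 872, 879, 946 and 962 TPM after cold, a log2 fold change of 0.04 (SE 0.05) with overlapping groups. Because Pgam1 was so abundant, a Pgam2 share of 10.5% ± 1.15 in control and 5.42% ± 0.609 in cold libraries went with a difference of −1.84% in the summed mutase TPM. The expected counts of Pgam1 were fractional in 4 libraries and those of Eno1 in 5, so these levels are uncertain where reads were split with near-identical copies.

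Eno3 (101839187), the muscle beta-enolase, was the most abundant muscle isoform and the one with the smallest fold difference. It measured 854, 858, 763 and 671 TPM at 37°C and 782, 659, 690 and 630 TPM after cold. The groups overlapped, the means were 786 ± 88.5 and 690 ± 65.6 TPM, and the log2 fold change was −0.21 (SE 0.11). Each number was nonetheless lower, by log2 differences of −0.13, −0.38, −0.15 and −0.09, the largest in number 2. Eno1 (101829906), the alpha-enolase of most tissues, had the highest level of the 10 genes, at 1696, 1620, 1710 and 1725 TPM at 37°C and 1644, 1623, 1711 and 1683 TPM after cold (log2 fold change −0.04, SE 0.04). The Eno3 share was 31.7% ± 2.95 in control and 29.3% ± 2.10 in cold libraries.

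Ckm (101836331), the muscle creatine kinase and a classical late marker of differentiation, was the least abundant of the 10 genes. Its level was 6.51, 5.10, 1.95 and 1.16 TPM at 37°C and 2.47, 2.11, 0.590 and 0.330 TPM after cold, from 99, 81, 28 and 18 counts and from 40, 32, 9 and 5 counts. Cold libraries 1 and 2 lay above controls 3 and 4, so the groups overlapped, although each number was lower, by log2 differences of −1.40, −1.27, −1.72 and −1.81. The log2 fold change was −1.44 with an SE of 0.69, the widest error of the 10 genes. The 5 counts of cold library 4 have a 95% Poisson interval of 1.62 to 11.7 and the 9 counts of cold library 3 one of 4.12 to 17.1, which cover counting error only. Ckb (101829595), the brain-type creatine kinase, measured 24.7, 25.1, 22.2 and 21.7 TPM at 37°C and 16.7, 19.0, 19.0 and 20.5 TPM after cold, without overlap. It was the only ubiquitous partner with a lower level in every number (log2 fold change −0.33, SE 0.10), and its within-number differences of −0.56, −0.40, −0.23 and −0.08 were uneven. Since both creatine kinases were lower, their summed TPM differed by −25.4% (27.1 ± 4.21 against 20.2 ± 0.949 TPM), and the Ckm share went from 12.7% ± 7.39 to 6.86% ± 5.42.

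**Figure D2:**
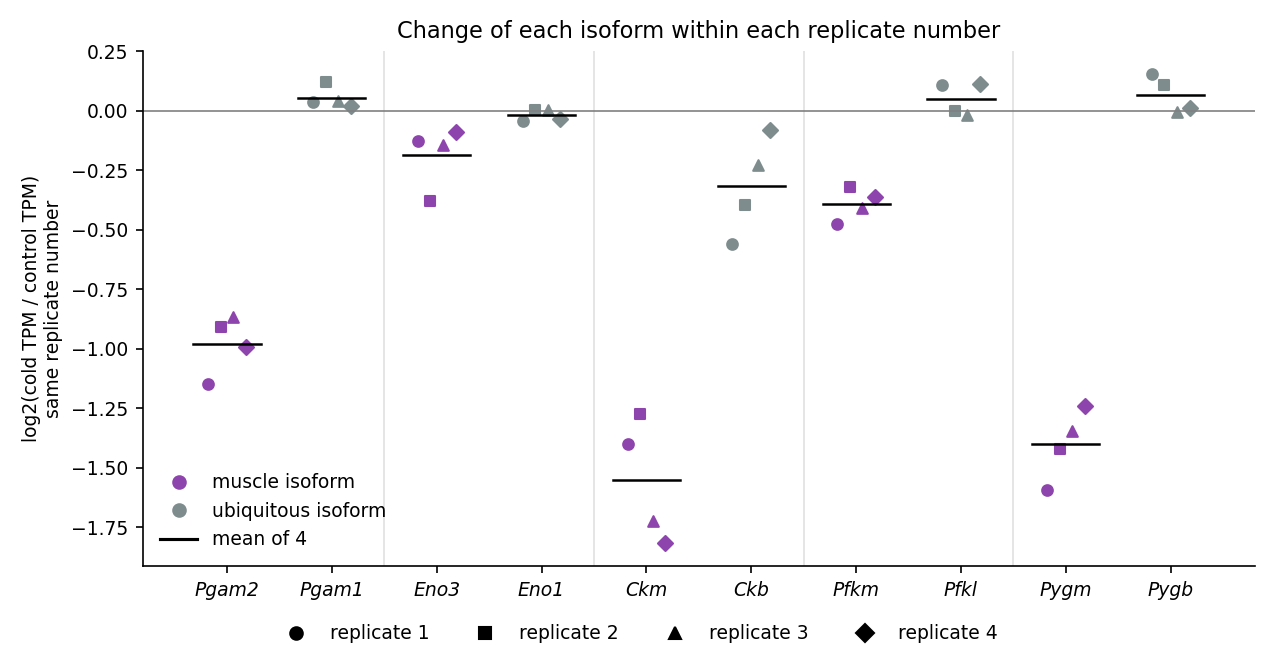
Difference of cold from control within each replicate number (vertical axis, log2 of the TPM ratio) for each muscle isoform (purple) and ubiquitous isoform (grey), with the mean of 4 as a line. All 20 points of the 5 muscle isoforms lie under 0, from −0.09 for Eno3 to −1.81 for Ckm, and of the ubiquitous isoforms Ckb alone has all its points under 0.

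Counts of called genes are given beside their background over all genes and were read no further, because the isoforms were chosen on this contrast. With both thresholds applied (log2 fold change of 1 or more in size, Benjamini-Hochberg adjusted p of edgeR's quasi-likelihood test under 0.05, no block), 0.04% of the 12506 genes were called lower and 0% higher, and none of the 10 isoforms was called. The genes with an unadjusted p under 0.05 and that fold numbered 100 lower and 6 higher, and DESeq2 called 71 lower. By adjusted p alone 0.072% of genes were called lower, with Pgam2 among them, and 0% higher, and Pgam2 was no longer called without control replicate 4 or without cold replicate 1, 3 or 4. Without control replicate 3, or without cold replicate 2, Pgam2 passed both thresholds, and the genes called lower over the whole table ranged from 0 to 33 as single libraries were left out (33 without control replicate 3). With the replicate number as a block the background became 0.808% lower, with Ckm and Pygm among them, and 0.04% higher. By adjusted p alone in the blocked fit it was 4.07% lower, with all 5 muscle isoforms and Ckb, and 1.26% higher, with none of the 10. The blocked log2 fold changes were −1.46 (SE 0.18) for Ckm, −1.45 (SE 0.07) for Pygm and −0.41 (SE 0.05) for Pfkm. Those of Ckb and Eno3 were −0.33 (SE 0.08) and −0.20 (SE 0.05). The TPM groups did not overlap for 2.41% of genes in the lower direction, with Pgam2, Pfkm, Pygm and Ckb, and for 2.27% in the higher direction, with none. Lower TPM in all 4 numbers was seen for 10.5% of genes, with all 5 muscle isoforms and Ckb, and higher TPM in all 4 for 12.8%, with Pgam1. The median log2 fold change over all genes tested was 0.01. The genes with a lower log2 fold change than the isoform numbered 53 for Pygm, 56 for Ckm, 110 for Pgam2, 436 for Pfkm, 568 for Ckb and 1074 for Eno3.

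The log2 ratio of muscle to ubiquitous TPM (each plus 0.1) set the partners against each other within a library. It was negative in each of the 8 libraries for each of the 5 pairs, so the ubiquitous form was the more abundant throughout. In control libraries the mean was −0.76 (SD 0.77) for Pygm/Pygb, −1.11 (SD 0.20) for Eno3/Eno1, −1.76 (SD 0.21) for Pfkm/Pfkl, −2.93 (SD 1.02) for Ckm/Ckb and −3.10 (SD 0.17) for Pgam2/Pgam1. Cold minus control, the mean ratio differed by −1.45, −0.17, −0.44, −1.12 and −1.03 in that order, and each pair was lower in 4 of 4 numbers. The Ckm/Ckb difference was −0.60 without cold replicate 4 and −0.62 with 1 TPM added in place of 0.1, and the Eno3/Eno1 difference was −0.10 without control replicate 2 and −0.25 without control replicate 4. The Pgam2/Pgam1 and Pygm/Pygb ratios had no overlap between groups, and the other 3 did. How often ratios of other genes behave so was not computed, here or for the further pairs. Within numbers, the Pgam2/Pgam1 ratio differed by −1.18, −1.03, −0.91 and −1.01, the tightest set relative to its size, whereas Eno3/Eno1 differed by −0.08, −0.38, −0.15 and −0.05.

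**Figure D3:**
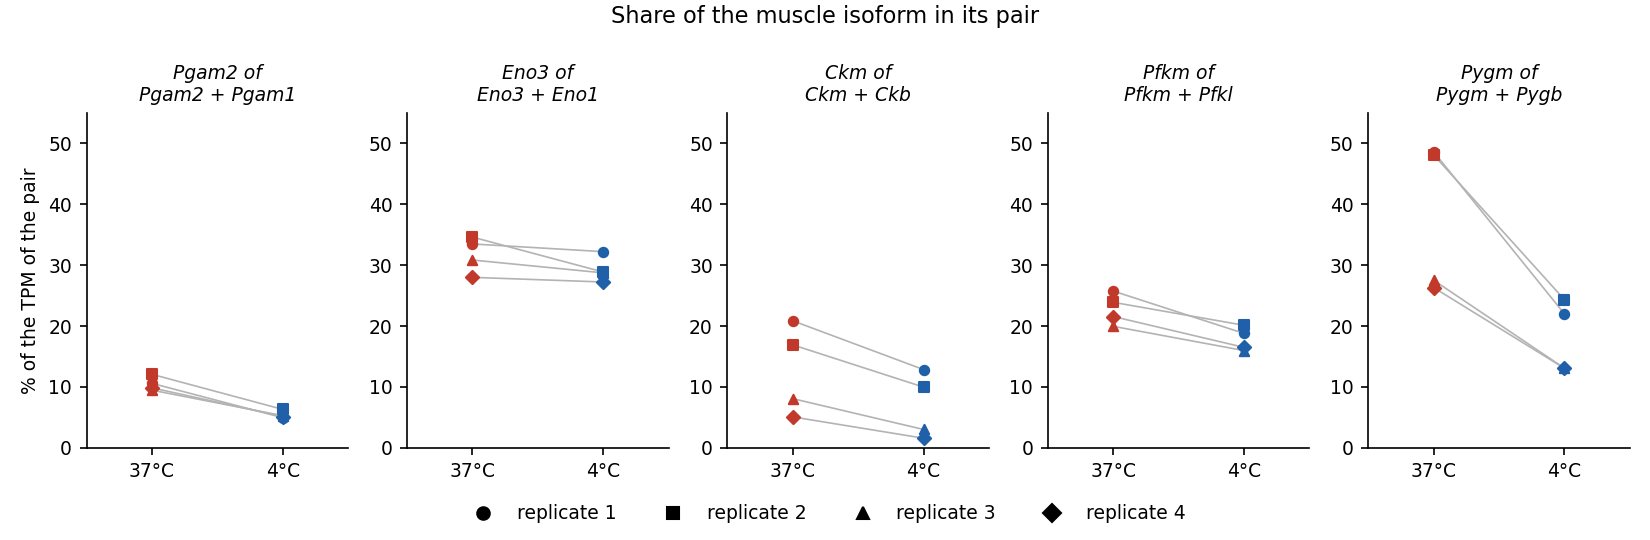
Share of the muscle isoform in the TPM of its pair (vertical axis, %) in the 4 control (37°C) and 4 cold (4°C) libraries, with lines joining equal replicate numbers. Every line slopes down, and Pygm goes from between 26.3% and 48.6% in control to between 13.1% and 24.4% in cold libraries.

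The 5 muscle isoforms differed in how they varied within a group. Ckm and Pygm were highest in libraries 1 and 2 of both groups, the same libraries in which the summed myocyte markers were highest. Pfkm showed a smaller step of that kind, and Eno3 showed it in control libraries. Pgam2, at 45.4 TPM in cold library 1 and 52.1 TPM in cold library 4, did not show it. By level, Eno1 stood first in control libraries, Pgam1 and Eno3 followed with overlapping ranges, then Pgam2, Pfkl and Pygb in that order, then Pfkm, Ckb and Pygm with overlapping ranges, and Ckm last. In cold libraries Pgam2 stood under Pfkl, Pygm under both Pfkm and Ckb, and the ranges of Pgam1 and Eno3 no longer overlapped.

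The genes with the most similar profile to each muscle isoform were found by the root mean square difference of centred log2(TPM + 0.1) over the 8 libraries, among 10491 genes with at least 1 TPM on average. For Pgam2 they were St6gal2 (0.13), Kiaa1614 (0.14) and Dysf (0.15), the last encoding dysferlin, a membrane repair protein of muscle. For Pygm they were Srl (0.12), encoding sarcalumenin of the sarcoplasmic reticulum, Pik3r5 (0.12) and Mymk (0.14), encoding the fusion protein myomaker. Those of Ckm lay farther off, at 0.27 for Igfn1, 0.38 for Palmd and 0.42 for Peg10, beside an SD of 1.35 for Ckm itself. Pfkm was nearest to Rb1 (0.06), Med22 (0.06) and the embryonic acetylcholine receptor subunit Chrng (0.07), and Eno3 to Dnajb5 (0.06), Polm (0.07) and Popdc2 (0.07). The small distances for Pfkm and Eno3 stand beside small SDs of their own, 0.24 and 0.17, against 0.54 for Pgam2 and 0.95 for Pygm.

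Pairs of muscle and more widely expressed isoforms outside these 5 enzymes were compared by the same log2 ratio. Of 17 such pairs, 3 held a gene not analysed here, 3 had at least 1 gene under 0.1 TPM, and 11 were tested with an exact two-sided permutation test over the 70 arrangements of 4 against 4 libraries. In 10 of 11 pairs the ratio fell on the lower side after cold, with a median difference of −0.51, and lower in all 4 numbers in 7. None passed a Benjamini-Hochberg adjusted p of 0.05. No pair could pass on its own values, since several pairs would have to reach the smallest exact p together. Without overlap between groups were Phkg1/Phkg2 (−1.06) and Phka1/Phka2 (−0.51), the catalytic and regulatory subunits of phosphorylase kinase, which activates glycogen phosphorylase. The same held for Prkag3/Prkag1 (−1.06), gamma subunits of the energy sensor AMPK, for the fatty acid-binding proteins Fabp3/Fabp5 (−1.02), and for the calcium pumps Atp2a1/Atp2a2 (−0.36). Each of these 5 had an exact p of 0.0286, the smallest that 70 arrangements allow, and an adjusted p of 0.0629. The Phkg1/Phkg2 difference moved with the pseudocount, to −1.65 with 0.01 TPM and −0.27 with 1 TPM added. The carnitine palmitoyltransferases Cpt1b/Cpt1a differed by −0.63 (exact p = 0.0571, adjusted p = 0.105; −0.36 without cold replicate 2), and the acetyl-CoA carboxylases Acacb/Acaca by −0.33 (exact p = 0.114, adjusted p = 0.180). The ADP/ATP carriers Slc25a4/Slc25a5 (−0.03, exact p = 0.686) and the glucose transporters Slc2a4/Slc2a1 (−0.17, exact p = 0.743) had an adjusted p of 0.743. Hexokinase, Hk2/Hk1, was the 1 pair with a higher ratio, by 0.12, in 4 of 4 numbers (exact p = 0.486, adjusted p = 0.594). Its difference ran from 0.0010 without control replicate 3 to 0.22 without cold replicate 3, and that of Slc2a4/Slc2a1 was 0.091 without cold replicate 3. That of Slc25a4/Slc25a5 ran from −0.076 without control replicate 4 to −0.0054 without control replicate 2.

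**Figure D4:**
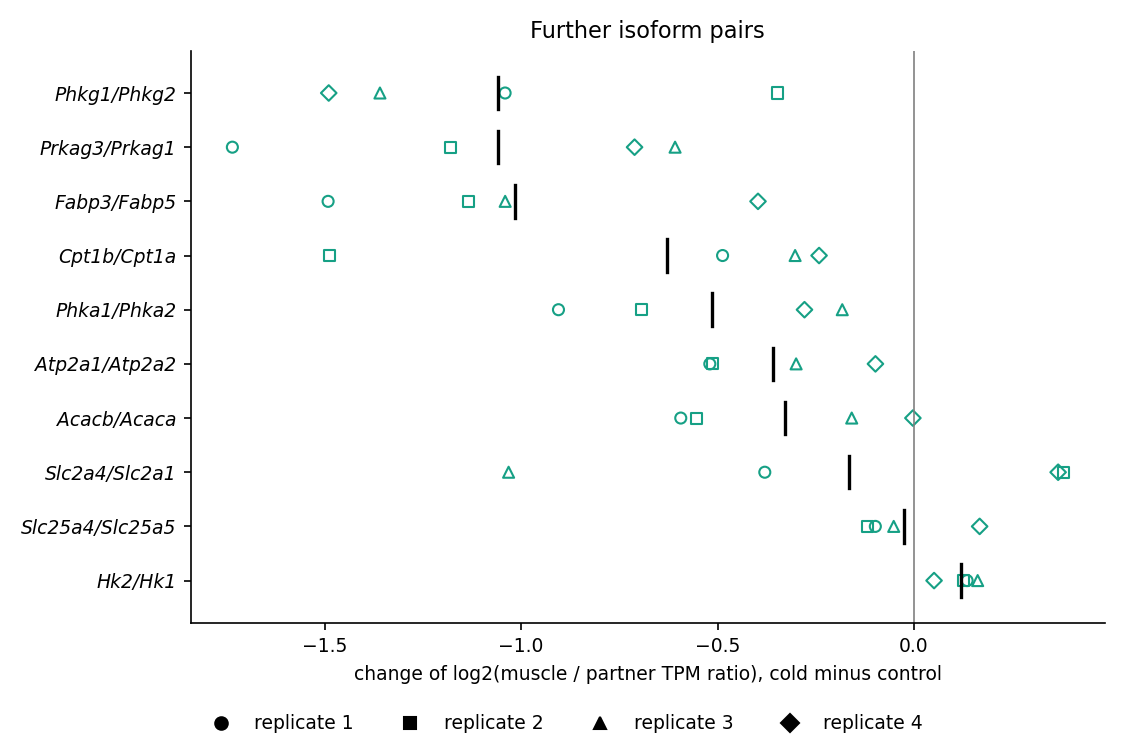
Difference in the log2 ratio of muscle to partner TPM, cold minus control (horizontal axis), for 10 of the 11 further isoform pairs tested, with open symbols for the 4 within-number differences and a bar for the difference of group means. With 0.1 TPM added, the bars run from −1.06 for Phkg1/Phkg2 and Prkag3/Prkag1 to 0.12 for Hk2/Hk1, and every other bar lies under 0.

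Prkag3 had the lowest adjusted p among these genes. It went from 5.52 ± 1.11 TPM in control to 2.60 ± 0.296 TPM in cold libraries, with a log2 fold change of −1.11 (SE 0.17), an adjusted p of 0.056 in edgeR without the block and 2.4e-05 with it. Phkg1 rested on at most 18 counts in a library, at 0.325 ± 0.0794 against 0.115 ± 0.0768 TPM. Its log2 fold change of −1.49 (SE 0.45) had an edgeR adjusted p of 0.445 without the block and 0.0215 with it. Of the 23 tested genes of these pairs 0 were called without the block (7 lower and 0 higher at an unadjusted edgeR p under 0.05, against 516 and 322 of all 12506 genes, and 1 lower at both thresholds by DESeq2) and 2, Prkag3 and Phkg1, were called lower with it, beside the 0.808% of all genes, and the median log2 fold change was −0.09 over the list. The glucose transporter and fatty acid-binding protein of muscle, Slc2a4 and Fabp3, had at most 10 and 23 counts in a library.

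Around the 5 enzymes, glycogen metabolism (20 of 21 genes tested) had 0 genes called by edgeR without the block or by DESeq2 (5 lower and 1 higher at an unadjusted p under 0.05 in edgeR) and 2 called lower with it, Phkg1 and Ppp1r3c, where the shares over all genes were those given above (0.808% lower with the block, and 516 lower and 322 higher of 12506 at an unadjusted p). Ppp1r3c, which targets protein phosphatase 1 to glycogen, went from 2.38 ± 1.22 to 1.08 ± 0.192 TPM (log2 fold change −1.18, SE 0.37, edgeR adjusted p = 0.463 without and 0.0016 with the block). By adjusted p alone in the blocked fit, Phka1 (log2 fold change −0.58) was lower as well. Glycogen synthase Gys1 was at 111 ± 4.01 and 103 ± 7.06 TPM, and the list had a median log2 fold change of −0.05, with 15 genes negative and 5 positive.

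The other 18 genes of glycolysis and its transporters had 0 calls at both thresholds in edgeR with or without the block and in DESeq2 (0 at an unadjusted p under 0.05 without the block) and a median log2 fold change of −0.02, with 11 negative and 7 positive. In the blocked fit by adjusted p alone, Gpi, the glucose-6-phosphate isomerase, was lower (blocked log2 fold change −0.15, adjusted p = 0.0462 in edgeR) and Pfkfb3, which makes the activator of phosphofructokinase, was higher (0.21, adjusted p = 0.0275). Aldoc, the brain-type aldolase, measured 2.52 ± 0.604 and 2.10 ± 0.282 TPM. Creatine and adenylate genes (11 of 14 tested) likewise had 0 calls at both thresholds in these fits (1 lower at an unadjusted p under 0.05) and a median of −0.10. In the blocked fit by adjusted p alone, which called 4.07% of all genes lower and 1.26% higher, 3 were lower, namely Gatm, the first enzyme of creatine synthesis (−0.25), the mitochondrial adenylate kinase Ak3 (−0.17) and the cytosolic muscle form Ak1 (−0.71). Gamt, the second enzyme of creatine synthesis, measured 23.6 ± 5.63 and 19.7 ± 1.62 TPM.

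Further isoforms of enolase, phosphorylase and creatine kinase were scarce, and the platelet phosphofructokinase Pfkp was not analysed here. Eno2, the neuronal enolase, measured 5.72 ± 1.53 TPM at 37°C and 6.10 ± 1.88 TPM after cold, and Pygl, the liver phosphorylase, 1.96 and 1.73 TPM. The mitochondrial creatine kinase Ckmt1a measured 0.833 and 0.748 TPM, while Ckmt2, the sarcomeric mitochondrial form, had no count in any of the 8 libraries, which allows up to 3 counts in each. None of the 3 tested was called in either fit.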

How the data were processed

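PolyA RNA of hamster SCs was sequenced in 4 control and 4 cold libraries. Per gene and library, the deposited table holds 3 values: expected counts (not normalized, 96.4% to 96.6% of them whole), TPM (scaled within each library by the authors) and normalized counts, a signal that the authors scaled with one factor per library (0.924 to 1.02). The submitters' processing notes name HISAT and HISAT2. The counting program and the genome build are not given in the sources used here. All value columns were used, and no column held comparisons. Pgam1 and Eno1 had fractional expected counts in 4 and 5 libraries, so these are uncertain where reads were split with near-identical copies.

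After rounding, the expected counts entered edgeR 4.0.16 (R 4.3.3; filterByExpr, TMM, quasi-likelihood F test, no block). A call needed a log2 fold change of 1 or more in size and, over 12506 genes, a Benjamini-Hochberg adjusted p under 0.05, the thresholds of the study's methods. At these thresholds the study reports more genes lower than the 5 called here, and none higher. Intervals of counts are exact Poisson intervals. Further isoform pairs were compared by log2((TPM + 0.1)/(TPM + 0.1)) with exact permutation tests in scipy 1.17.1. Figures were drawn with matplotlib 3.10.9. On simulated data with 200 of 12449 genes changed by a log2 fold of 2, the cold-against-control comparison recovered 200 with 0 false calls in both fits. The simulation held no difference between replicate numbers and changed only genes with higher counts. It therefore cannot show how many changed genes either fit recovers in the real libraries.

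The replicate numbers were taken as pairing the libraries, although nothing in the labels says what a number marks. Deviations of same-numbered libraries from their group means correlated at 0.61 to 0.66. Different-numbered libraries correlated at 0.59 and 0.57 within libraries 1 and 2, and at 0.47 and 0.43 within libraries 3 and 4. The correlations thus follow in large part the split of libraries 1 and 2 from 3 and 4. Whether a number pairs single libraries was not tested. For the isoforms and the lists of energy enzymes, calls at both thresholds are given with and without the block. Blocked fold changes are given for the isoforms whose call it changed.

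The members and lists were chosen with earlier results of these data known. Besides the 10 isoforms, genes were named by a rule: of each list, up to 4 genes past both thresholds in either fit, otherwise the 2 with the largest fold change at 1 TPM or more, and the 3 nearest profiles of each muscle isoform. Pax7, Myod1, Des, Itga7, Cd68, Ptprc, Aldoa, Pgk1, Tpi1, Gys1, Phka1, Gpi, Gatm, Ak3, Gapdh, Pgm2 and the low-level further isoforms were named after their values were seen. Alternatives were RLE factors, library totals, DESeq2 1.42.0, other filters, limma 3.58.1 on log2(TPM + 0.1) or log2(TPM + 1), other pseudocounts, the deposited normalized counts, the replicate block and leaving out each library. The values of 1 further pair and 1 glycogen gene are not reported here.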

Additional observations from a re-analysis of the deposited data

Results flagged for a closer look

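Isolated libraries were looked for with Dixon's criterion in 100 groups of 4 (levels and ratios of the isoforms, further pairs, named genes and marker sums). None of the 10 isoforms or their 5 ratios held one, and 3 other groups did, where chance at 1 in 20 would give about 5. The log2 ratio of Slc25a4/Slc25a5 was −2.05 in control library 4 and between −1.86 and −1.84 in the other control libraries. Pgk1 was at 908 TPM in control library 4 and between 869.6 and 875.3 TPM in the others. Pax7 was at 16.1 TPM in cold library 3 and between 12.4 and 12.9 TPM in the other cold libraries.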

How the results depend on the processing

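The log2 fold changes of the 10 isoforms moved by less than the spread between replicates in all 160 values recomputed, and the 80 of the muscle isoforms were all negative. They ranged from −1.68 to −1.24 for Pygm, −0.47 to −0.35 for Pfkm, −1.07 to −0.93 for Pgam2, −0.29 to −0.15 for Eno3 and −1.90 to −0.92 for Ckm. The 60 recomputed pair differences were all negative as well, from −1.69 to −1.22 for Pygm/Pygb, −0.52 to −0.36 for Pfkm/Pfkl, −1.11 to −0.95 for Pgam2/Pgam1, −0.25 to −0.10 for Eno3/Eno1 and −1.56 to −0.60 for Ckm/Ckb. Counts of called genes were far less stable. Against 5 genes lower, the replicate block gave 101, library totals 8, DESeq2 71, no filter on low counts 15, a minimum mean of 10 counts 3, limma with either pseudocount 3, and leaving out 1 library between 0 and 33 (33 without control replicate 3). Adjusted p alone gave 9 lower, and 509 lower with the block. Against 0 genes higher, the block gave 5, adjusted p alone with the block 158, and leaving out 1 library 0 to 1. Pgam2 passed both thresholds without control replicate 3 or without cold replicate 2, and lost its adjusted p without control replicate 4 or cold replicate 1, 3 or 4. DESeq2 by adjusted p alone added Pfkm. Genes of the further pairs called lower numbered 2 with the block, 1 with DESeq2, 1 without a filter and 0 to 1 when 1 library was left out (1 without control replicate 3), against 0. Glycogen genes called lower numbered 2 with the block, against 0. The Slc2a4/Slc2a1 difference turned to 0.091 without cold replicate 3, in a range of −0.32 to 0.091. In the replicate block with a sign-flip test the smallest p is 0.125, so no further pair could pass. The cause of these shifts was not tested. Depth limits Ckm, Phkg1, Fabp3 and Slc2a4, each with few reads in some libraries.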

Other observations

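Among the neighbouring glycolytic enzymes, Gapdh was listed at 90.8 ± 14.4 TPM at 37°C and 93.2 ± 7.38 TPM after cold (SD, n = 4), with fractional expected counts in all 8 libraries, far under Aldoa (1686 ± 47.4 TPM), Pgk1 (881 ± 18.5 TPM) and Tpi1 (610 ± 25.1 TPM) in the same control libraries. Whether its reads were divided among near-identical copies was not tested. Pgm2, a phosphoglucomutase, was at 19.7 ± 0.569 TPM at 37°C and 21.9 ± 0.479 TPM after cold and higher in 4 of 4 numbers, without passing an edgeR adjusted p of 0.05 in either fit.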
